A study of Mus musculus with 4 samples.

Results

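The Kruppel-like factors other than Klf15 are described here in mouse adipose-derived regenerative cells (ADRCs) and in ADRCs that had received 6 factors meant to turn them toward cardiomyocytes. The members were the 10 genes Klf2, Klf3, Klf4, Klf5, Klf6, Klf7, Klf9, Klf10, Klf11 and Klf13, taken by gene symbol from the 50600 genes of the deposited table. No cutoff on their values was used, but they were chosen with earlier results of these data known. All 10 were in the table, and all 10 had enough reads to be tested. Only RNA was measured.

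Kruppel-like factors are transcription factors with zinc fingers near the end of the protein that bind CACCC boxes and GC-rich elements of promoters. Their differing other ends recruit activators or repressors, and members are commonly grouped into an activating group, a group that binds the corepressor CtBP, and a group that binds the corepressor Sin3. In fat they are known as stage-dependent regulators of adipocyte formation, and in muscle, heart and vessels several of them regulate contractile, metabolic and growth genes.

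The untreated group, called ADRC, held 2 libraries of passage 2 cells grown from inguinal and axillary fat of C57BL/6J mice aged 8 weeks. The treated group, called 6F, held 2 libraries of passage 2 cells from C57BL/6-Tg (Myh6-EGFP) MG3Tm; MG3 mice, in which the promoter of the cardiac myosin gene Myh6 drives green fluorescent protein (GFP). These cells were transduced with lentiviruses carrying the 6 factors and sorted for GFP 3 weeks later. The labels do not name the factors or give the age of the 6F mice, and they leave out whether cultures were separate. The p-values then reflect only how far these libraries differ, which may be technical. The titles call the ADRC libraries an αMHC-GFP positive control, whereas their strain label names no reporter. Transduction, time in culture, sorting, sequencing depth and, by the labels, strain differed between the groups together and cannot be told apart. The 6F libraries come from the GFP-sorted fraction, and not from all transduced cells. The labels do not give the purity of the sort.

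RNA was depleted of ribosomal RNA before sequencing, and reads on exons were counted per gene. ADRC library a had 2273897 exon reads and library b 2662128, and the 6F pair had 7593772 and 6986223. The letters carry no order or pairing. Levels below are in CPM, exon read counts scaled by library size after trimmed-mean (TMM) normalization, and changes are log2 fold changes of 6F against ADRC. The label of the ADRC group was checked against 8 stromal markers, of which all 8 were tested. Their summed level was 3653 and 3523 CPM in ADRC and 2204 and 2737 CPM in 6F, but Nt5e (CD73) had only 6 and 1 reads in ADRC. Of these stromal markers 4 fell, 2 did not pass and 2 rose, Nt5e and Ly6a. Ly6a had 77.5 and 91.8 CPM in ADRC and 252 and 153 CPM in 6F. Itgb1, which did not pass, held 1042 and 1059 CPM of the ADRC sums and 1057 and 1302 CPM of the 6F sums. Summed levels of 8 cardiomyocyte markers were 27.9 and 32.4 CPM in ADRC and 4298 and 4225 CPM in 6F. Of the 8, 7 rose, of which Tnni3, Ryr2 and Myl7 passed the low-count filter only through 6F. Myh6, whose promoter drove the GFP used for the sort, held 1546 and 870 CPM of the 6F sums. Its rise is not independent of the sort. Actn2, the sarcomeric alpha-actinin, was at 1.09 and 1.21 CPM in 6F. Of 6 smooth muscle markers 4 rose, with sums of 4792 and 4901 CPM in ADRC and 11967 and 10730 CPM in 6F. Counts of markers that rose or fell, here and below, stand beside 24.2% of all genes tested higher in 6F and 22.8% lower. In bulk RNA, fewer cells of a type and less RNA per cell cannot be told apart.

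The sequences shown are the promoter stretches of the members on which the results turn, Klf9 and Klf11, which rose, Klf3, which fell, and Klf2, whose 6F libraries differed from each other. They come from RefSeq on GRCm38.p6, where 8 of the 10 members have an entry and Klf5 and Klf10 have none. Each is the part of the 250 bases before the RefSeq start that also lies before the gene start in GENCODE, 5′ to 3′ on the plus strand. Capitals mark matches, on either strand, to a CACCC box (CACCC), a GC box (GGGCGG) or the site of MEF2 factors (CTA, any 4 bases, TAG).
Klf9, chr19:23140976-23141225: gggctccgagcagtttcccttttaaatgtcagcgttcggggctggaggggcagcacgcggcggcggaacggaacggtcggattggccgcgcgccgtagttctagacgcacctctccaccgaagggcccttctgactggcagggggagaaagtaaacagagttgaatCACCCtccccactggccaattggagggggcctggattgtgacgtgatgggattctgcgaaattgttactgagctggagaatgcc
Klf11, chr12:24651121-24651273: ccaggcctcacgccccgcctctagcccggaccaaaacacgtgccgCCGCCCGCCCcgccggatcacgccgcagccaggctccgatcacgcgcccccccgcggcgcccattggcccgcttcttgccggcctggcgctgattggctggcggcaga
Klf3, chr5:64803271-64803387: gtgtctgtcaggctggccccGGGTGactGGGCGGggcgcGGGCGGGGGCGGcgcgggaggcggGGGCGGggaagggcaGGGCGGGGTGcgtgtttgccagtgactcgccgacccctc
Klf2, chr8:72318812-72319032: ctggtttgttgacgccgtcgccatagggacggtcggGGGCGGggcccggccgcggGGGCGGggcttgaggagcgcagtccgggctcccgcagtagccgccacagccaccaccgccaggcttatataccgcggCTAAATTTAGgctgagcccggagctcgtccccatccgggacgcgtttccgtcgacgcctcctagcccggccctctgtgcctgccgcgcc

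The Klf9 stretch holds 1 CACCC box, 84 bases before the RefSeq start, and no GC box. Klf11 shows the reverse, with 2 overlapping GC boxes in the printed stretch, 4 in the whole window and no CACCC box. The Klf3 stretch is the densest, with 5 GC boxes and 2 CACCC boxes, the last of which overlaps a GC box. The Klf2 stretch holds 2 GC boxes and a single MEF2 match, CTAAATTTAG, 118 bases before the RefSeq start. In the full windows a GC box occurred in 7 of the 8 members and in 32.7% of 32807 RefSeq promoters. The Klf7 window, counted here, lies before the RefSeq start but wholly inside the GENCODE gene. A CACCC box occurred in 5 of the 8 members and in 52.0% of all promoters. The MEF2 match occurred in 1 of the 8, Klf2, and in 3.20% of all promoters. The GATA factor site (AGATAA) and the glucocorticoid receptor site (GNACA, any 3 bases, TGTNC, where N is any base) were in none of the 8 windows, against 9.99% and 0.387% of all promoters. GC content of the 8 windows ran from 59.2% for Klf7 to 78.4% for Klf3, beside a median of 52.4% over all promoters. These matches describe letters only, and binding was not measured.

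Klf9 and Klf11, both of the Sin3-binding group, rose in 6F cells, and Klf5 and Klf3 fell. Klf9 rose 3.42-fold in mean CPM and Klf11 2.32-fold, while Klf5 fell to 0.157 of its ADRC level and Klf3 to 0.594. The other 6 members did not pass the threshold. The 4 calls among 10 members stand beside 47.0% of all 12573 genes tested, 24.2% higher and 22.8% lower, so the share of members that changed was near that of genes at large. In 8 of the 10 members the libraries of the groups did not overlap, all except Klf6 and Klf7, beside 77.8% of all genes tested. The median log2 fold change was -0.18 over the members and 0.07 over all genes tested, and the median of its size was 0.57 and 0.74. Calls are at an edgeR quasi-likelihood adjusted p under 0.05 over all genes tested.

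The count of members called moved with the setting, as did that of all genes. With DESeq2 size factors and with a mean of at least 1 CPM the same 4 members were called, beside 47.2% and 43.0% of all genes. Scaling by library size added Klf10, beside 48.1%, and dropping the filter added Klf2, beside 31.7%. The DESeq2 Wald test called Klf2 in place of Klf11, beside 33.6%, and a 2-fold minimum removed Klf3, beside 33.0%. Without ADRC library a or b Klf9 alone was called, beside 17.9% and 17.3%. Without 6F library a Klf2 and Klf10 joined the 4, beside 67.8%, and without 6F library b Klf4 and Klf13 joined as well, beside 70.7%.

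**Figure D1:**
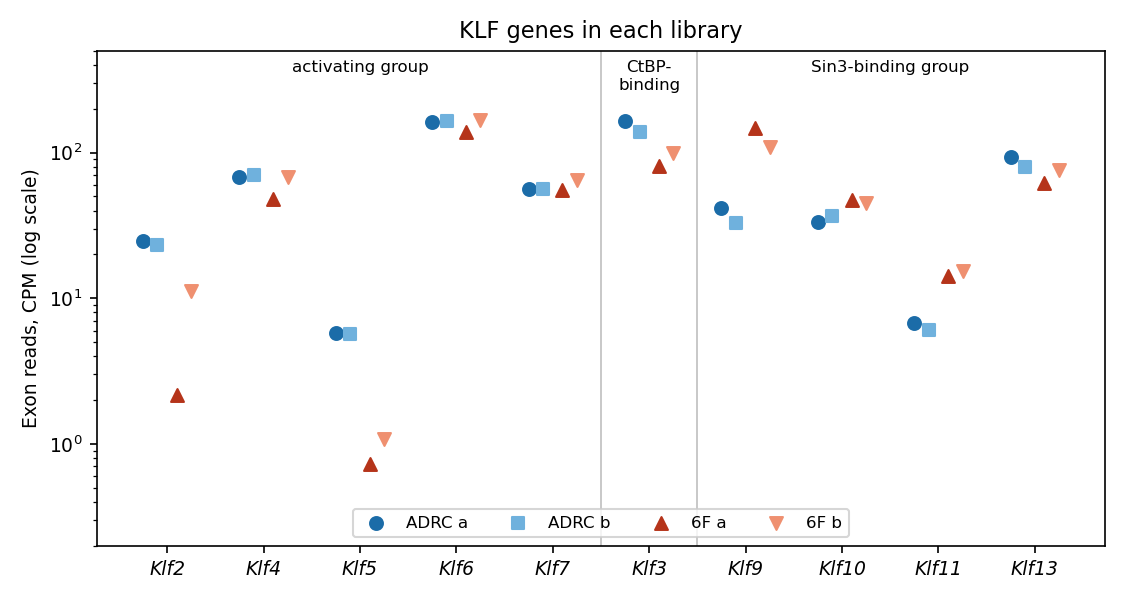
Level of each of the 10 genes in each library, in CPM on a log axis, ordered by group; each point is 1 library (circles ADRC a, squares ADRC b, upward triangles 6F a, downward triangles 6F b). Klf9 and Klf11 lie higher in both 6F libraries, Klf5 and Klf3 lower, and Klf2 is spread from 2.17 to 11.3 CPM within 6F.

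Among the activating group, Klf5 fell, and in the fit on all 4 libraries its change was the lowest of the 10 members. Without 6F library b that of Klf2 was lower, at -3.40 against -2.90. Klf5 (ENSMUSG00000005148; GRCm38 chromosome 14, 99298691 to 99315036, plus strand) drives proliferation of smooth muscle cells and induces Pparg early in adipocyte formation. It had 12 and 14 reads in ADRC libraries a and b, 5.78 and 5.66 CPM, and 6 and 8 reads in 6F libraries a and b, 0.724 and 1.07 CPM. Both 6F libraries were far below both ADRC libraries, in which the values lay close together. Klf5 fell by a log2 fold change of -2.65 ± 0.50 (SE; n = 2 libraries a group; 95% interval -3.85 to -1.44; edgeR adjusted p = 0.00702). It passed the low-count filter only through the ADRC libraries, and without ADRC library a or b its adjusted p was 0.0940 and 0.103, at changes of -2.66 and -2.68. The exon model in the table ends 1631 bases short of the GENCODE gene.

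Klf2, a factor of endothelial quiescence that also restrains adipocyte formation by repressing Pparg, was lower in both 6F libraries but unequally so. Klf2 (ENSMUSG00000055148; chromosome 8, 72319033 to 72321656, plus strand) had 51 and 57 reads in ADRC and 18 and 84 reads in 6F, giving 24.6, 23.1, 2.17 and 11.3 CPM. The groups did not overlap, yet 6F library b stood 5.19-fold above 6F library a (95% exact interval from counts 3.09 to 9.17), the widest gap within 6F of the 10 members. The fitted change was -1.83 ± 0.67 (95% interval -3.44 to -0.23) and missed the threshold (edgeR adjusted p = 0.0620). It was -1.06 without 6F library a (edgeR adjusted p = 3.63e-06) and -3.40 without 6F library b (edgeR adjusted p = 4.85e-23). Both of those fits take their spread from the ADRC libraries alone and assume that the lone 6F library varies like them. Klf2 also passed with no low-count filter (edgeR adjusted p = 0.000631) and by the DESeq2 Wald test (adjusted p = 0.0284).

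Summed macrophage and endothelial markers were, like Klf2, lowest in 6F library a. So were some genes outside these markers, such as Ltbp2 and Pdgfra. Their levels there were 40.7 and 143 CPM, against 167 and 313 CPM in 6F library b. Fabp4 was instead lowest in 6F library b, at 5.10 CPM. The summed level of 7 macrophage markers was 262 and 278 CPM in ADRC, 10.6 CPM in 6F library a and 116 CPM in 6F library b. Of these sums Lyz2 alone, which did not pass, held 167 and 170 CPM in ADRC and 4.10 and 81.7 CPM in 6F. Adgre1 (F4/80) and Ptprc (CD45) had 20 and 8 reads in ADRC library a, 27 and 15 in ADRC library b, none of either in 6F library a, and 58 and 22 in 6F library b. Of the 6 macrophage markers tested, 2 fell (Cd68 and Csf1r) and 4 did not pass. The summed level of 8 endothelial markers was 39.0 and 42.1 CPM in ADRC, 12.1 CPM in 6F library a and 28.6 CPM in 6F library b. Of the 4 endothelial markers tested, Pecam1 and Cdh5 fell, and Kdr and Tek did not pass. Kdr had 11.6 and 14.2 CPM in ADRC, 1.69 CPM in 6F library a and 13.3 CPM in 6F library b. Tek had 9.15 and 10.1 CPM in ADRC and 8.45 and 10.9 CPM in 6F. Pecam1 passed the low-count filter only through ADRC, had an edgeR adjusted p of 0.0654 when ADRC library a was left out, and was not tested when ADRC library b was. Cdh5 had edgeR adjusted p-values of 0.0910 and 0.0667 without ADRC library a or b, and Csf1r had one of 0.114 without library b. Macrophages and endothelial cells express Klf2. The 6F cells were sorted for Myh6-driven GFP, and the ADRC labels state no sort. Whether macrophages or endothelial cells had a part in the Klf2 result was not tested.

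**Figure D2:**
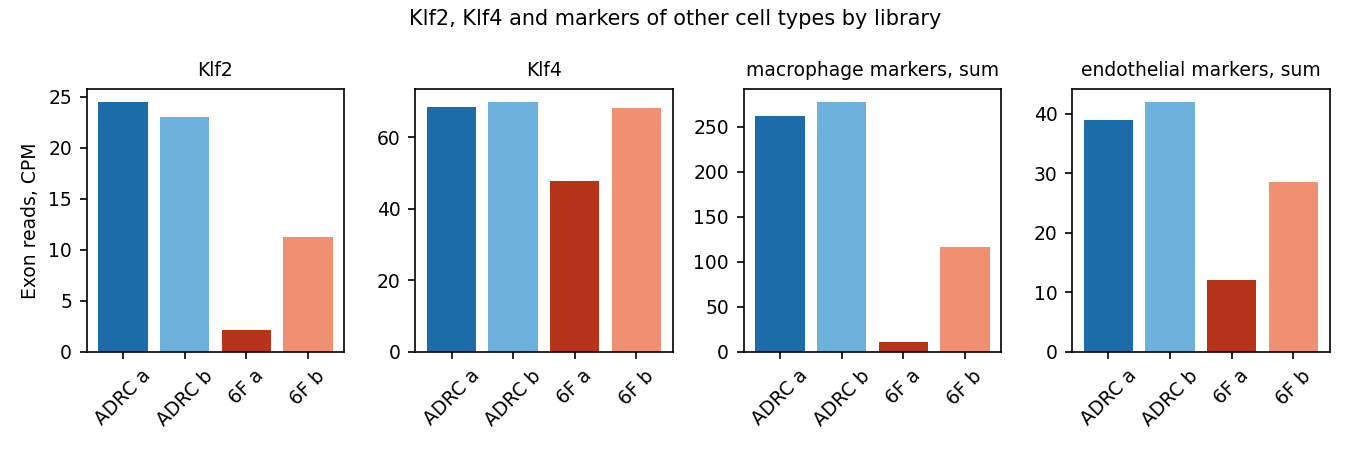
Bars give exon reads in CPM, on axes that start at 0, in each of the 4 libraries for Klf2, for Klf4 and for the summed macrophage and endothelial markers. All 4 panels are lowest in 6F library a, where the macrophage sum is 10.6 CPM against 116 CPM in 6F library b. Of these 6F sums Lyz2 alone holds 4.10 and 81.7 CPM.

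Klf4, a pluripotency factor that represses contractile genes of smooth muscle, stayed among the higher members. Klf4 (ENSMUSG00000003032; chromosome 4, 55527143 to 55532466, minus strand) had 142 and 173 reads in ADRC and 396 and 509 in 6F, giving 68.4, 70.0, 47.8 and 68.3 CPM. The 6F library b lay just under the ADRC libraries, and only 6F library a was clearly lower. The change was -0.25 ± 0.21 (95% interval -0.77 to 0.26; edgeR adjusted p = 0.364), and without 6F library b it was -0.50 (edgeR adjusted p = 0.000565). The interval leaves room for a fall to a log2 change of -0.77 and for a small rise.

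Klf6 and Klf7 did not pass the test and were the only members whose libraries overlapped. Klf6 (ENSMUSG00000000078; chromosome 13, 5861482 to 5870394, plus strand), an early-response factor that represses the preadipocyte gene Dlk1, had 163 and 165 CPM in ADRC and 139 and 167 CPM in 6F. Its change was -0.10 ± 0.16 (95% interval -0.48 to 0.28; edgeR adjusted p = 0.631), and its sign was positive when libraries were scaled by size alone, at 0.13, and without 6F library a, at 0.03. Klf7 (ENSMUSG00000025959; chromosome 1, 64029447 to 64122282, minus strand), known for neuron growth and for restraining adipocyte formation in human preadipocytes, had 55.8 and 56.2 CPM in ADRC and 55.4 and 64.4 CPM in 6F. Its change was 0.10 ± 0.17 (95% interval -0.32 to 0.51; edgeR adjusted p = 0.672). For both genes the upper and lower bounds exclude a 2-fold change in either direction.

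Klf3 is the member of the CtBP-binding group, a repressor that blocks adipocyte formation in part through Cebpa. Klf3 (ENSMUSG00000029178; chromosome 5, 64803388 to 64832901, plus strand) had 342 reads in each ADRC library, 165 and 138 CPM, and 668 and 741 reads in 6F, 80.6 and 99.4 CPM. Both 6F libraries were below both ADRC libraries. Klf3 fell by a log2 fold change of -0.75 ± 0.18 (95% interval -1.19 to -0.32; edgeR adjusted p = 0.0161). Without ADRC library a the change was -0.65 (edgeR adjusted p = 0.178), and without ADRC library b it was -0.89 (edgeR adjusted p = 0.0888). Klf3 was also the only member whose exact interval left out equal levels in the ADRC libraries, library b at 0.841 of library a (95% exact interval 0.721 to 0.979). The intervals were not adjusted for the 10 members.

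In the Sin3-binding group, Klf9 showed the largest rise of the 10 members. Klf9 (ENSMUSG00000033863; chromosome 19, 23141226 to 23168134, plus strand) is induced by glucocorticoid and thyroid hormone and promotes the middle stage of adipocyte formation. It had 87 and 81 reads in ADRC, 41.9 and 32.8 CPM, and 1216 and 811 reads in 6F, 147 and 109 CPM. The lowest 6F library was well above the highest ADRC library. Klf9 rose by a log2 fold change of 1.78 ± 0.22 (95% interval 1.24 to 2.32; edgeR adjusted p = 0.00165), from a mean of 37.3 ± 6.44 (SD) to 128 ± 26.9 CPM. It was the only member called under all 9 alternative fits, with changes from 1.56 to 2.02 and a highest adjusted p of 0.0318. The table's exon model ends 1223 bases short of the GENCODE gene.

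Klf11 and Klf10, both first described as genes induced early by transforming growth factor beta (TGF-beta), were higher in both 6F libraries, and Klf11 passed the test. Klf11 (ENSMUSG00000020653; chromosome 12, 24651274 to 24662789, plus strand) had 14 and 15 reads in ADRC, 6.74 and 6.07 CPM, and 118 and 115 reads in 6F, 14.2 and 15.4 CPM. Within each group the values lay close together, and the groups stood apart. Klf11 rose by 1.21 ± 0.30 on the log2 scale (95% interval 0.50 to 1.93; edgeR adjusted p = 0.0172). Without ADRC library a the change was 1.26 (edgeR adjusted p = 0.103), without ADRC library b it was 1.11 (edgeR adjusted p = 0.136), and the DESeq2 Wald test gave 1.22 (adjusted p = 0.0740).

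Klf10 (ENSMUSG00000037465; chromosome 15, 38291463 to 38300706, minus strand) had 69 and 91 reads in ADRC, 33.2 and 36.8 CPM, and 389 and 336 reads in 6F, 47.0 and 45.1 CPM. The groups did not overlap, but the difference was 0.39 ± 0.18 on the log2 scale (95% interval -0.04 to 0.82) and missed the threshold (edgeR adjusted p = 0.114). It passed without 6F library a (0.37, edgeR adjusted p = 0.0342), without 6F library b (0.45, edgeR adjusted p = 0.00715) and when libraries were scaled by size only (0.62, edgeR adjusted p = 0.0302), a scaling that also moved the median of all genes from 0.07 to 0.30. The table's exon model of Klf10 ends 2950 bases short of the GENCODE gene.

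Klf13, which in Xenopus works with Gata4 in the heart and in T cells drives Ccl5, was the other member of this group. Klf13 (ENSMUSG00000052040; chromosome 7, 63886351 to 63938915, minus strand) had 193 and 198 reads in ADRC, 92.9 and 80.1 CPM, and 508 and 565 reads in 6F, 61.3 and 75.8 CPM. Both 6F values were lower, with 6F library b close to ADRC library b. The change was -0.33 ± 0.18 (95% interval -0.77 to 0.10; edgeR adjusted p = 0.174), and without 6F library b it was -0.46 (edgeR adjusted p = 0.000592). The Sin3-binding members thus had values on both sides of 0.

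**Figure D3:**
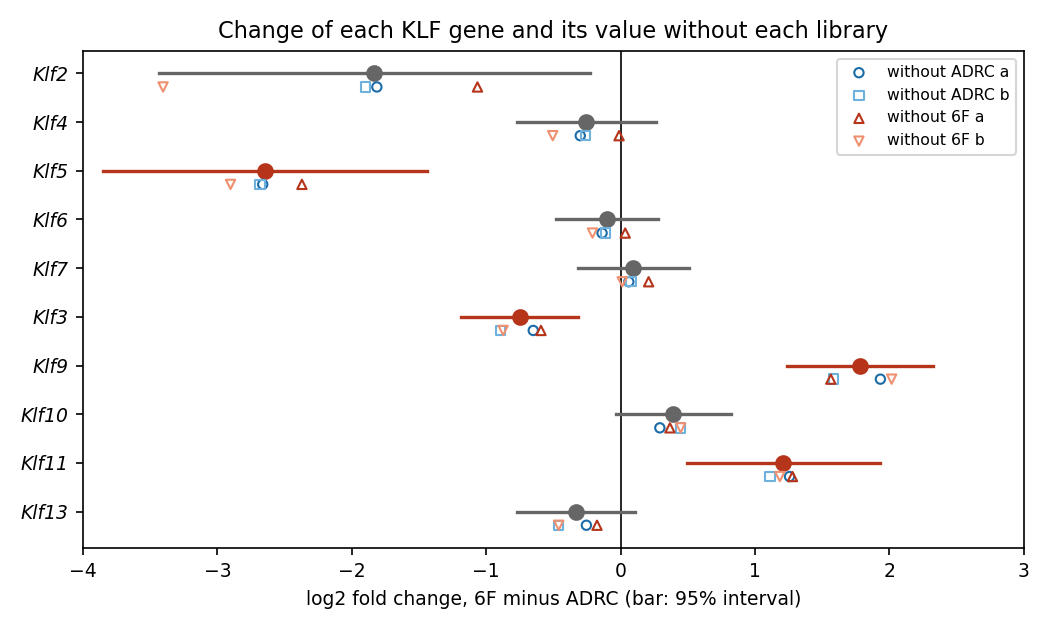
Log2 fold change of 6F against ADRC for each gene: filled points with bars are the fit on all 4 libraries with its 95% interval, red where the adjusted p is under 0.05 and grey otherwise, and open symbols leave out 1 library each. For Klf2 the open symbols run from -3.40 to -1.06, and for Klf9 from 1.56 to 2.02.

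Libraries of the 6F group differed from each other more often than those of ADRC. By exact intervals on reads, 6F library b was above 6F library a for 6 of the 10 members: Klf2, Klf4, Klf3, Klf13, Klf6 and Klf7. Apart from Klf2 the ratios of b to a ran from 1.16 for Klf7 to 1.43 for Klf4. Klf9 went the other way, at 1.35-fold higher in library a (95% exact interval 1.23 to 1.48). Klf15, the Kruppel-like factor left out of the 10, was likewise 1.44-fold higher in 6F library a. Its level was 6.26 and 5.26 CPM in ADRC and 785 and 544 CPM in 6F. Reads of an introduced copy of Klf15, if it was among the factors, would be counted with the cell's own gene. The smaller read numbers in ADRC give wider intervals there, and intervals cover counting error only and were not adjusted for the number of genes.

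Compared per length of exon, Klf6 led in both ADRC libraries, whereas Klf9 led in 6F library a and Klf6 in 6F library b. In ADRC the order of mean CPM per kilobase was Klf6 at 38.9 ± 0.317 (SD, n = 2), Klf4 at 22.7, Klf3 at 13.5, Klf13 at 13.0, Klf2 at 12.9, Klf10 at 11.5, Klf9 at 11.4, Klf7 at 6.89, Klf5 at 3.32 and Klf11 at 1.51. Libraries of neighbours in that order overlapped for Klf3 and Klf13, for Klf13 and Klf2, and for Klf10 and Klf9. In 6F the order of mean CPM per kilobase was Klf9 at 39.2 ± 8.23, Klf6 at 36.3 ± 4.69, Klf4 at 19.0 ± 4.75, Klf10 at 15.1, Klf13 at 10.3, Klf3 at 8.01, Klf7 at 7.37, Klf2 at 3.64 ± 3.48, Klf11 at 3.51 and Klf5 at 0.522. There Klf9 and Klf6 overlapped, as did Klf3 with Klf7 and Klf2 with Klf11. Klf9 thus moved from among the lower members to the level of Klf6, and Klf5 moved to the bottom.

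The sum of the 10 members overlapped between the groups, at 657 and 614 CPM in ADRC and 595 and 657 CPM in 6F, while its make-up shifted. As a share of the summed reads per kilobase, Klf9 held 9.26% and 7.57% in ADRC and 32.8% and 22.4% in 6F. Klf6 held 27.9% and 29.5% in ADRC and 24.0% and 26.7% in 6F. Klf2 held 9.59% and 9.41% in ADRC and 0.857% and 4.10% in 6F, and Klf5 held 2.42% and 2.48% against 0.307% and 0.419%. Since shares sum to a fixed total, the rise of one lowers the others. Ratios of reads between 2 genes of a library need no scaling between libraries. The ratio of Klf9 to Klf13 reads was 0.451 and 0.409 in ADRC and 2.39 and 1.44 in 6F, and that of Klf4 to Klf5 reads was 11.8 and 12.4 in ADRC and 66.0 and 63.6 in 6F. The ratios to Klf5 are imprecise, since Klf5 had only 12 and 14 reads in ADRC and 6 and 8 in 6F. Of the reads on the 10 members and Klf15 together, Klf15 took 0.943% and 0.849% in ADRC and 56.9% and 45.3% in 6F. The Klf15 share would include reads of an introduced copy, if there was one.

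**Figure D4:**
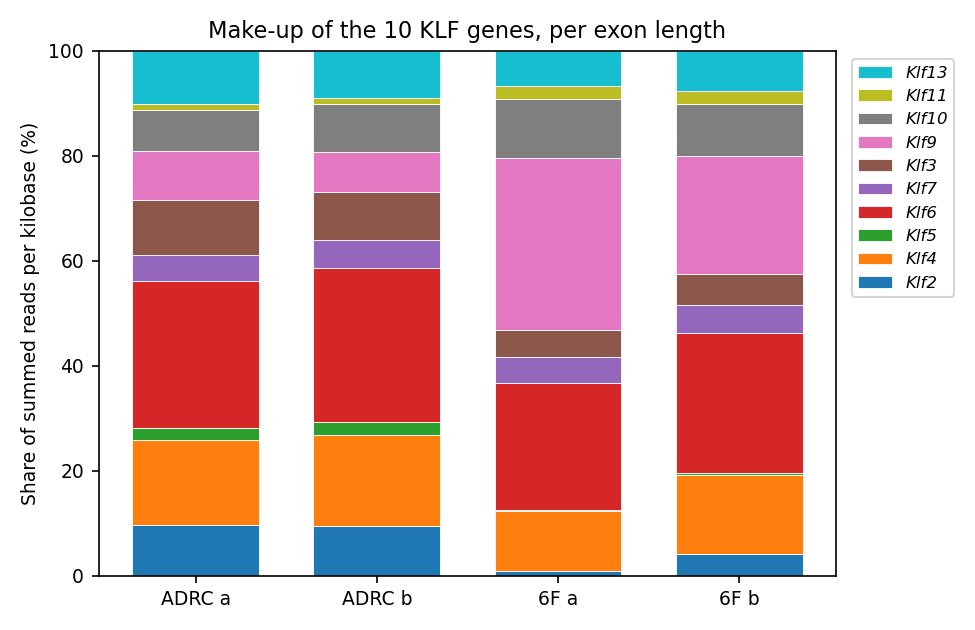
Stacked bars give, for each library, the share of each gene in the summed exon reads per kilobase of the 10 genes, in percent. The Klf9 band grows, at 9.26% and 7.57% in ADRC against 32.8% and 22.4% in 6F, and Klf5 is barely visible in 6F.

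Related genes were taken from 7 lists, which together held 32 called genes. In the 4 fits that leave out 1 library, 11 of the 32 were called every time. The other 21 were not called, or fell under the low-count filter, in at least 1 fit: 19 when ADRC library a was left out, 20 for ADRC library b, 1 for 6F library a and none for 6F library b. The share of all genes called also fell without an ADRC library and rose without a 6F library, as given above. Such losses were therefore not particular to these lists. Counts of calls in each list stand beside 24.2% of all genes tested called higher in 6F and 22.8% called lower. Medians are of log2 fold changes over the tested genes of a list, beside 0.07 over all genes.

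Of 15 other genes of the family and its SP relatives, 8 were tested, 2 rose, 2 fell and 4 did not pass, with a median log2 fold change of 0.20. Klf8, a CtBP-binding repressor, had 1 read in each ADRC library and 148 and 76 reads in 6F, a pooled ratio of 32.4 (95% exact interval 8.86 to 269). It passed the low-count filter only through 6F. Sp2 fell from 28.6 ± 3.65 to 10.2 ± 0.227 CPM (log2 fold change -1.48; edgeR adjusted p = 0.00354). The other calls were a rise of Sp4 and a fall of Sp7, a bone-forming factor with 6 and 14 reads in ADRC and 0 and 1 in 6F, which passed the filter only through ADRC. Sp4 had adjusted p-values of 0.0594 and 0.102 by edgeR when ADRC library a or b was left out, and Sp7 was not tested without ADRC library b. Klf17, Sp8 and Sp9 had 0 reads in all 4 libraries.

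Of 12 cofactors through which Kruppel-like factors act, 1 rose, 4 fell and 7 did not pass, with a median of -0.02. Kat2b, the acetyltransferase PCAF, rose from 36.7 ± 0.792 to 89.9 ± 2.47 CPM (1.29; edgeR adjusted p = 0.0016). Wdr5, a subunit of histone methyltransferase complexes, fell from 57.8 to 24.7 CPM (-1.23; edgeR adjusted p = 0.00302), as did Hdac1, Crebbp and Hdac2. Without ADRC library a and b, edgeR adjusted p-values were 0.0654 and 0.121 for Hdac1, 0.143 and 0.132 for Crebbp, and 0.100 and 0.238 for Hdac2. The corepressors themselves did not pass: Ctbp1 was at 169 CPM in ADRC and 165 CPM in 6F, and Sin3a at 81.0 and 68.4 CPM. Of 6 ubiquitin ligases of Kruppel-like proteins, Wwp1 and Fbxo32 rose and 4 did not pass, with a median of 0.23. Neither passed without ADRC library a or b (edgeR adjusted p = 0.191 and 0.0533 for Wwp1, and 0.0731 and 0.121 for Fbxo32).

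Of 7 genes of the MEK5-ERK5-MEF2 route, which induces Klf2 and Klf4 in endothelium, 6 were tested. Mef2a and Mef2c rose, Mapk7 (ERK5) fell and 3 did not pass, with a median of -0.14. Mef2a had 78.5 and 72.4 CPM in ADRC and 357 and 188 CPM in 6F (1.85; edgeR adjusted p = 0.00451). Mapk7 had edgeR adjusted p-values of 0.154 and 0.0762 when ADRC library a or b was left out, and Mef2c one of 0.0704 without ADRC library b. Reads of an introduced copy, if it was among the factors, would be counted with the cell's own gene.

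Of 9 glucocorticoid response genes, chosen because Klf9 belongs to them, 4 rose, 2 fell and 3 did not pass, with a median of 0.23. Zbtb16 had 2 and 0 reads in ADRC and 566 and 447 reads in 6F, a pooled ratio of 146 (95% exact interval 40.4 to 1210), and without ADRC library a, which held both reads, it was at least 53.0-fold higher against a floor of 3 reads. Without ADRC library b the ratio was 66.8. Fkbp5, a co-chaperone of the receptor and a standard target, went the other way, from 52.5 ± 1.34 to 10.3 ± 1.13 CPM (-2.34; edgeR adjusted p = 0.000476). Nr3c1, Dusp1 and Hsd11b1 rose and Tsc22d3 fell, so the list moved in both directions. Without ADRC library a and b, edgeR adjusted p-values were 0.143 and 0.108 for Nr3c1, 0.0832 and 0.148 for Dusp1, and 0.150 and 0.0990 for Tsc22d3. Hsd11b1 had 0 and 1 reads in ADRC and 44 and 50 in 6F, and it and Zbtb16 passed the low-count filter only through 6F.

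Of 8 TGF-beta response genes 5 fell, none rose and 3 did not pass, with a median of -0.88. Smad6, an inhibitory SMAD, fell from 45.4 to 14.3 CPM (-1.67; edgeR adjusted p = 0.00127). Ltbp2, Pmepa1 and Ski also fell, with edgeR adjusted p-values without ADRC library a and b of 0.121 and 0.0893, 0.0855 and 0.0918, and 0.350 and 0.247. The change of Ltbp2 was -1.89, and it was -1.19 and -3.21 without 6F library a and b. Klf11 and Klf10, named for the same growth factor, had values above 0, as given above.

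Of 9 genes of the adipogenic program 8 were tested, 2 rose, 5 fell and 1 did not pass, with a median of -1.01. Adipoq, which was not tested and is not in that median, had 0 and 1 reads in ADRC and 75 and 9 reads in 6F. Cd36, the fatty acid receptor, fell from 83.7 ± 26.4 to 4.27 ± 1.48 CPM (-4.28; edgeR adjusted p = 0.000381). Pparg, the master regulator that Klf2 represses and Klf5 and Klf9 promote, fell from 19.3 ± 3.30 to 5.93 ± 0.995 CPM (-1.69; edgeR adjusted p = 0.00605), and its adjusted p was 0.0621 without ADRC library a. Cebpa, Cebpb and Fabp4 fell too, Fabp4 by -1.72 in all 4 libraries and by -3.03 and -1.03 without 6F library a and b, whereas Plin1 and Lpl rose. Plin1 passed the low-count filter only through 6F. Without ADRC library a and b, edgeR adjusted p-values were 0.0989 and 0.120 for Cebpa, 0.0549 and 0.0705 for Cebpb, 0.113 and 0.140 for Fabp4, 0.140 and 0.171 for Plin1, which was not tested without 6F library a, and 0.341 and 0.328 for Lpl.

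By distance between centred log2 CPM over the 4 libraries, the genes nearest to Klf9 among 11962 tested protein-coding genes outside the family were Tex264 (distance 0.0979), Fam49a (0.113) and Igtp (0.113). Their log2 fold changes were 1.74, 1.85 and 2.01. Nearest to Klf5 were Noc2l (0.0149), the mitochondrially encoded mt-Nd4l (0.0368) and Ybx1 (0.0440), with changes of -2.24, -2.26 and -2.21. The log2 CPM used for the distances had a small count added to each gene, which shrinks differences of genes with few reads. In the fit Klf5 itself changed by -2.65. Its closeness to these genes thus depends in part on that shrinkage. These distances rest on 4 libraries.

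The authors' deposited table holds its own comparison by a test named EDGE, in which 0.832% of the 50600 genes have a false discovery rate under 0.05. In the authors' deposited table this rate is 1 for all 10 members. Fold changes in the authors' deposited table are 3.57 for Klf9, 2.18 for Klf11, 1.37 for Klf10 and 1.12 for Klf7, and -4.15 for Klf5, -3.20 for Klf2, -1.57 for Klf3, -1.19 for Klf13, -1.13 for Klf4 and -1.02 for Klf6, with a minus sign for lower in 6F. The sign was that of the fit for 10 of 10 members. Genes that overlap Klf3, Klf7, Klf9 or Klf13 in the annotation had 0 to 3 reads per library, which is small beside the reads of these members.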

How the data were processed

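The members and gene lists were chosen with earlier results of these data known. A single table of 50600 genes was deposited by the authors. Total exon reads per library are in it, per the file headers, as whole-number counts, beside an EDGE fold change (a signed score) and false discovery rate (an adjusted p-value) from the authors' comparison. GRCm38 was the build, per the submitters' processing notes. Aligner, counter, strand handling and the input of EDGE: not given in the sources used here. A further 52 per-sample columns were not used.

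Genes with exon length 0 (18045) were left out. Counts were filtered with filterByExpr, scaled by TMM and compared with the quasi-likelihood test of edgeR 4.0.16 (limma 3.58.1, R 4.3.3), with Benjamini-Hochberg adjustment over 12573 genes and a threshold of 0.05. The SE is the log2 fold change divided by the square root of F. Positions come from GENCODE M21, in which 99.5% of gene IDs were found. All 10 members were named; from each related list, up to 4 called genes by size with values mainly for those called in every leave-one-out fit, and up to 2 not called. A gene counted in its list is not reported here by name. Alternatives were other size factors, filters, the DESeq2 1.42.0 Wald test, a 2-fold minimum and leaving out each library. On simulated data for this comparison, 3 of 50 genes changed 1.5-fold, 13 of 50 at 2-fold, 48 of 50 at 4-fold and 50 of 50 at 8-fold were recovered among 11617 tested, with 5 of 11417 unchanged genes called.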

Additional observations from a re-analysis of the deposited data

How the results depend on the processing

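The counts of members moved most when a library was left out. Against 2 members higher and 2 lower, leaving out 1 library gave 1 to 3 higher and 0 to 5 lower, and 2385 to 8572 genes called in all against 5908; the lowest counts came without an ADRC library and the highest without a 6F library. The DESeq2 Wald test gave 1 member higher, and a 2-fold minimum gave 1 lower. Scaling by library size alone gave 3 higher; over all genes it called 3920 higher and 2128 lower, against 3038 and 2870. Under the 9 alternatives each member except Klf6 kept its direction. Called members kept their call in all 9 for Klf9, in 7 each for Klf3 and Klf5, and in 6 for Klf11. The cause of these shifts was not tested.

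No paired analysis was possible because the columns carry no replicate number. Unique exon reads and intron reads, planned as alternatives and as a further readout, were not run. On simulated data, in which 11417 of 11617 genes were unchanged, the test recovered 13 of 50 genes changed 2-fold. The real fit called 47.0% of genes, and its share of missed 2-fold changes was not measured. Smaller changes were called in it, such as Klf3 at -0.75, Lpl at 0.50 and Ski at -0.46 on the log2 scale. The 95% intervals of Klf4, Klf6, Klf7, Klf10 and Klf13 exclude a 2-fold change, and that of Klf2 does not. A member that did not pass is not shown to be unchanged. Klf5 and Klf11 had 12 to 15 reads per ADRC library.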
